A study of Arabidopsis thaliana with 33 samples.

Results

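The genes described here belong to families that build, modify and loosen the plant cell wall: expansins and expansin-like proteins, xyloglucan endotransglucosylase/hydrolases (XTH), cellulose synthase-like enzymes (CSL), trichome birefringence-like proteins (TBL), enzymes of pectin, and the beta-glucosidases (BGLU). They were chosen by gene symbol, a rule that uses no measured value, though earlier results of these data were known at the time. A probe was a member if its annotated symbol began with 1 of the family names EXPA, EXPB, EXLA, EXLB, XTH, CESA, CSL with a letter from A to G, TBL, FLA, AGP, GAUT, PME or BGLU and a number. The rule found 81 of 26090 gene probes, each for a different gene. The RefSeq gene table holds 250 genes with such symbols, so 81 of 250 had a named probe on these arrays. By family, the share was 21 of 34 for the expansins and expansin-like genes, 8 of 30 for XTH, 8 of 26 for CSL, 22 of 41 for TBL, 2 of 23 for the pectin families GAUT and PME, and 20 of 40 for BGLU. The cellulose synthases (CESA), fasciclin-like proteins (FLA), arabinogalactan proteins (AGP) and the CSLE and CSLG genes had no named probe and are not analysed here.

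A growing plant cell is held by cellulose microfibrils tied together by hemicelluloses and embedded in pectin. Expansins loosen this network without cutting it, XTH enzymes cut and rejoin xyloglucan chains, CSL enzymes make hemicellulose backbones, and TBL proteins are mostly transferases that put acetyl groups on wall polysaccharides. In stamens these processes serve the fast elongation of the filament, the thickening and opening of the anther, and the growth of the pollen tube. The BGLU family is broader: its enzymes release glucose from many glycosides, and several act on flavonols, coumarins or monolignols rather than on the wall itself.

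Flowers of the ap3, nzz and ms1 mutants of Arabidopsis thaliana were set against wild type on 33 arrays of long oligonucleotides, which carried mutant RNA in one dye and wild-type RNA in the other. The homeotic gene AP3 gives petals and stamens their identity, NZZ (also called SPL) is required for the first steps of spore formation, and MS1 acts in the tapetum, the tissue that feeds the pollen. For ap3, inflorescence meristems with buds to early stage 10 were used, and for nzz and ms1 meristems with buds to stage 13 (4 arrays each, 2 in each dye orientation). An ms1 series divided the flowers of ms1 and wild type into 7 stage samples of 3 arrays each, with 1 array for each of 3 collection days (sets). In sets 1 and 3 the mutant was in Cy3 and in set 2 in Cy5, so the dye and set 2 cannot be told apart in the series. All plants grew at 20 °C in constant light, and each sample pooled tissue of 50 plants. Neither alleles nor the accession of the plants are given in the labels used here.

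Each value below is a log2 ratio of mutant over wild type, so a negative value is lower in the mutant. The base of the deposited logarithm and the direction were inferred and are likely, not settled. Were the sign the other way, "lower" and "higher" would trade places throughout. That all arrays were already turned to 1 direction was also inferred. Read instead as dye ratios, with the arrays of 1 dye orientation turned, 27 called ratios or differences changed sign and 14 lost their call. Over all probes, arrays of opposite dyes correlated negatively within each mutant (r from -0.32 to -0.06 in nzz, -0.40 to -0.20 in ms1 and -0.50 to -0.44 in ap3), and over the members r ran from -0.67 to 0.08. A ratio was called when limma's p, adjusted by Benjamini-Hochberg across all gene probes tested, was under 0.05. Errors are standard errors (SE) from that fit, which also held a dye term. The fit pooled the spread over the 12 mutant arrays or over the 21 series arrays. An SE is thus not the spread of a group's own arrays, while n counts the arrays of that group. Since the tissue was whole buds, fewer cells of a type and less RNA per cell cannot be told apart. Of the mutated genes, SPL alone had a named probe, with log2 ratios of -0.35, -0.29, -0.15 and -0.25 on the nzz arrays (adjusted p = 0.174, limma). Its fitted ratio was -0.26 in nzz, -0.47 in ap3 and 0.06 in ms1, with no call (adjusted p = 0.219 in ap3 and 0.880 in ms1, limma). The probe's place in the gene is unknown here, so these values cannot serve as a check of the labels.

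Deposited ratios stopped at 100-fold (6.64 on the log2 scale). Of 2673 member values, 182 lay at this limit and 22 were missing, and 47 of the 81 members had neither on any array. Of the 182 limited values, 179 (98.4%) pointed higher where the mutant was in Cy5 and lower where it was in Cy3. Over all gene probes the share was 97.4%, so this was not particular to the members. In 13 members both limits, with opposite signs, occurred within a single group. The members at the limit on more than 10 arrays were BGLU27, BGLU31, EXPA21, TBL36 and TBL43, and none of these 5 was called anywhere.

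Over the 3 mutants and the 7 series samples, 806 member ratios were tested and 32 were called, in 20 members. Of these calls, 18 were at least 2-fold. The other 61 members were called in no mutant and no series sample. The heat map of all members shows that calls were scattered through every family except the pectin genes.

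**Figure D1:**
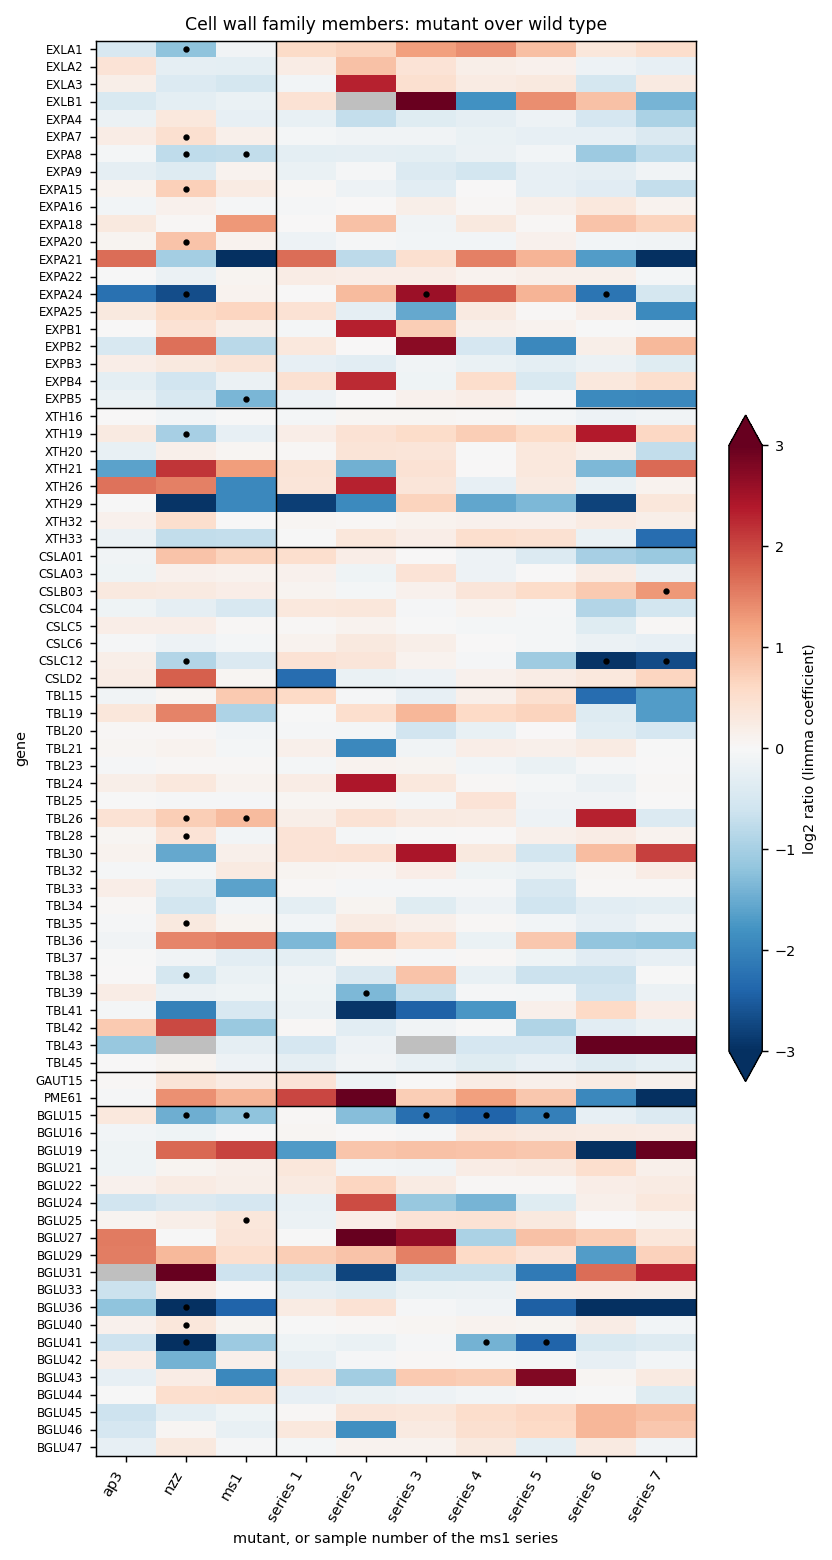
Fitted log2 ratio of mutant over wild type for the 81 members (rows, grouped by family) in ap3, nzz, ms1 and the 7 samples of the ms1 series (columns). Colour runs from blue (lower in the mutant) to red (higher), with the scale ending at -3 and 3, black dots mark calls, and grey marks ratios not tested. Of the 32 calls, 16 stand in the nzz column.

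The ap3 comparison asked which members differ in flowers with altered petal and stamen identity. No member was called in ap3: 0 of 80 tested, against 46 of 26017 gene probes (0.177%) called by limma. At an unadjusted p under 0.05 there were 7 members and 2515 of all probes. The median log2 ratio was -0.00 over the members and 0.02 over all probes. The lowest adjusted p of a member was 0.149, for EXPA24, an alpha-expansin, with log2 ratios of -4.31, 0.03, -1.38 and -3.29. Its arrays ranged from no difference to a strong fall, and its mean of -2.24 ± 0.48 (SE, n = 4) was not called. BGLU45, which acts on monolignol glucosides, had a log2 ratio of -0.62 ± 0.15 with the same sign on every array (adjusted p = 0.180, limma, n = 4).

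The nzz comparison asked which members differ in flowers that do not start spore formation. In nzz, 16 of 80 tested members were called, 9 lower and 7 higher. Over all gene probes 15.2% were called, 6.91% lower and 8.32% higher, so the members' share was near the background. The median log2 ratio was 0.07 over the members and 0.10 over all probes. When each array was centred on its median, 14 members were called, 11 lower and 3 higher, with 12 of the 16 among them. All probes split into 1801 lower and 2166 higher as deposited and 2117 lower and 930 higher after centring, so small positive ratios depended on the centring. At most 3 of the 7 higher calls (EXPA7, EXPA15, EXPA20, TBL26, TBL28, TBL35 and BGLU40) were thus kept after centring.

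Of 21 expansins and expansin-like genes, 3 were called lower and 3 higher in nzz. EXPA24 had log2 ratios of -2.40, -2.35, -1.97 and -3.90 on the nzz arrays. All 4 arrays lay far below 0, and the mean was -2.66 ± 0.48 (SE, n = 4, adjusted p = 0.00797, limma). EXPA8, another alpha-expansin, had the tightest fall, with -0.74, -0.73, -0.67 and -0.89 and a mean of -0.76 ± 0.09 (adjusted p = 0.000939, limma, n = 4). EXLA1, an expansin-like protein whose activity is not established, had -1.67, -0.75, -1.10 and -1.34 (mean -1.22 ± 0.34, adjusted p = 0.0416, limma, n = 4). The higher ones were all alpha-expansins. EXPA20 had 0.79, 2.02, 0.34 and 0.31, EXPA15 had 0.87, 0.82, 0.49 and 0.65, and EXPA7, known from root hairs, had 0.58, 0.54, 0.40 and 0.36. None of these 3 overlapped 0, but the size for EXPA20 rested on 1 array: its mean of 0.87 ± 0.19 became 0.54 without nzz replicate 2. EXPA4 and EXPB5, expansins of the pollen tube, had log2 ratios of 0.32 ± 0.12 and -0.48 ± 0.23 in nzz and were not called (adjusted p = 0.111 and 0.190, limma, n = 4). EXPB1, a beta-expansin, had 0.74, 0.67, 0.33 and -0.0012 in nzz and was not called (adjusted p = 0.101, limma, n = 4). The expansin-like gene EXLB1 was not called in nzz or ms1 (adjusted p = 0.933 and 0.980, limma, n = 4 each), and in ms1 it had a limited value on each side of 0. The called member among 8 XTH genes was XTH19, a gene known from stem wound healing. Its log2 ratios of -0.86, -0.94, -1.09 and -1.06 in nzz lay within a narrow range, and the mean of -0.99 ± 0.13 was 1.98-fold lower (adjusted p = 0.00154, limma, n = 4).

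Among 8 CSL genes, CSLC12 was called lower in nzz. It belongs to the CSLC group, whose enzymes make the xyloglucan backbone, and all 4 CSLC genes had a probe. CSLC12 had log2 ratios of -0.27, -1.32, -0.68 and -1.25 in nzz, all below 0 but spread over more than 2-fold, with a mean of -0.88 ± 0.21 (adjusted p = 0.0257, limma, n = 4). CSLA01, of the glucomannan synthase group, had 1.16, 0.98, 0.65 and 0.61, higher on every array, and was not called (adjusted p = 0.0753, limma, n = 4). CSLD2, an enzyme of tip-growing cells, had 1 limited value and was not called (1.79 ± 0.90, adjusted p = 0.213, limma, n = 4). Among the pectin genes, GAUT15, of a family of galacturonosyltransferases that make pectin, had 0.39 ± 0.18 and was not called (adjusted p = 0.178, limma, n = 4).

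Of 21 tested TBL genes, 1 was called lower and 3 higher in nzz, all with small ratios. TBL38, described as an acetylesterase of pectin in the seed coat, had -0.56, -0.26, -0.55 and -0.76 (mean -0.53 ± 0.07, adjusted p = 0.00234, limma, n = 4). TBL26, of the group that acetylates glucomannan, had 0.75, 1.10, 0.67 and 0.41 (mean 0.73 ± 0.19). TBL35, a xylan acetyltransferase, had 0.37, 0.19, 0.31 and 0.31 (mean 0.29 ± 0.06). TBL28, also linked to xylan acetylation, had 1.02 and 0.70 where the mutant was in Cy5 and 0.07 and -0.16 where it was in Cy3, so its call (0.41 ± 0.12, adjusted p = 0.0485, limma, n = 4) came without 1 sign on all arrays.

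Of 20 BGLU genes, 3 were called lower and 1 higher in nzz, and the lower ones were, with EXPA24, the 4 members with the largest called ratios. BGLU36 had log2 ratios of -1.70, -2.50, -6.64 and -6.64 in nzz. The last 2 arrays, with the mutant in Cy3, were at the limit, on the side where nearly all limited values of that dye orientation lay. The mean of -4.37 ± 0.54 (adjusted p = 0.00127, limma, n = 4) thus holds 2 values that are not measured sizes. BGLU41 had -2.04 and -1.63 with the mutant in Cy5 and -4.03 and -4.23 with it in Cy3. It was lower in both orientations by amounts that differed between them, and the mean was -2.98 ± 0.31, or 7.91-fold (adjusted p = 0.000566, limma, n = 4). BGLU15, which breaks down flavonol glycosides, had -1.76, -1.37, -1.46 and -1.30. These 4 values lay close together, with a mean of -1.48 ± 0.10, or 2.78-fold lower, and the lowest adjusted p of any member in a mutant (0.000113, limma, n = 4). BGLU40 was called at a small ratio, 0.34 ± 0.09.

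Of the 16 calls in nzz, 7 held when any single nzz array was left out: BGLU15, BGLU36, BGLU41, EXPA8, EXPA20, TBL38 and XTH19. Without replicate 1 or without replicate 2, 8 members were called. BGLU40, EXLA1, TBL26 and TBL28 lost the call without any 1 of the 4 arrays (adjusted p of 0.0766 to 0.203 over these fits, limma).

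The ms1 comparison asked which members differ in flowers with a tapetum defect and no viable pollen. In ms1, 5 of 81 members were called, 3 lower and 2 higher, against 567 of 26039 gene probes (2.18%, with 1.74% lower and 0.434% higher). The median log2 ratio was -0.03 over the members and 0.02 over all probes. BGLU15 had -1.16, -1.32, -1.52 and -0.82 in ms1, lower on every array (mean -1.21 ± 0.10, 2.31-fold, adjusted p = 0.0012, limma, n = 4). EXPA8 had -0.85, -0.96, -0.77 and -0.42, also lower on every array (mean -0.75 ± 0.09, adjusted p = 0.00352, limma, n = 4). EXPB5, a beta-expansin of the pollen tube, had -1.23, -1.70, -1.16 and -1.35. All 4 arrays were more than 2-fold lower in ms1, and the mean was -1.36 ± 0.23 (adjusted p = 0.0189, limma, n = 4). TBL26 was higher at 0.74, 1.29, 1.56 and 0.21 (mean 0.95 ± 0.19), and BGLU25 at 0.49, 0.27, 0.23 and 0.38 (mean 0.34 ± 0.07). The adjusted p was 0.0362 for TBL26 and 0.0326 for BGLU25 (limma, n = 4).

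Several members had the same sign on all ms1 arrays without a call. BGLU36 had -1.09, -3.14, -2.34 and -3.05 (adjusted p = 0.0626, limma, n = 4), and BGLU41 had -0.69, -1.86, -1.12 and -0.67 (adjusted p = 0.137, limma, n = 4). CSLC04, the second xyloglucan synthase gene with a low ratio, had -0.78, -0.47, -0.37 and -0.33 (adjusted p = 0.0694, limma, n = 4). EXLA3, an expansin-like gene, had -0.88, -0.91, -0.35 and 0.027, near 0 on the last array (adjusted p = 0.264, limma, n = 4). CSLC12 had log2 ratios on both sides of 0 in ms1, from -1.18 to 0.22. BGLU15 and EXPA8 kept their calls without any single ms1 array. Without replicate 2 or without replicate 3, these 2 were the calls left: EXPB5 had an adjusted p of up to 0.0997 and TBL26 of up to 0.166 over the fits that left out 1 array. BGLU25 lost its call without any 1 of the 4 arrays (0.0695 to 0.13, limma). When ms1 was fitted without the other mutants, no member and no other probe was called (11 members and 1811 probes at an unadjusted p under 0.05, limma).

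**Figure D2:**
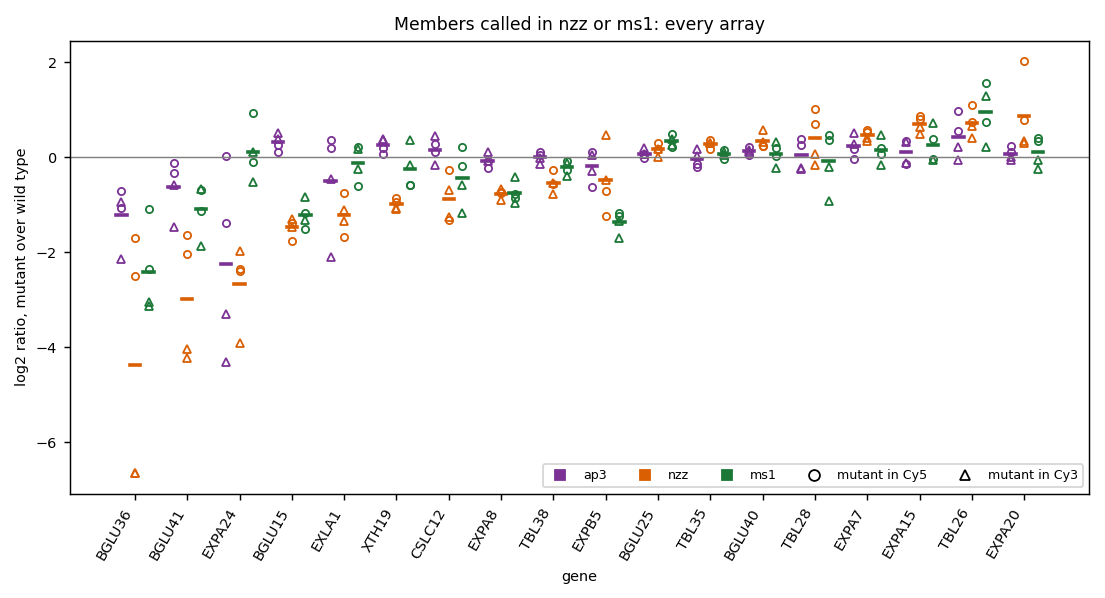
Log2 ratio of mutant over wild type on every array of ap3, nzz and ms1 (colours) for the 18 members called in nzz or ms1, ordered by their nzz ratio. Circles mark arrays with the mutant in Cy5, triangles the mutant in Cy3, and short bars the fitted values. The BGLU15 points of nzz and ms1 lie between -1.76 and -0.82 and those of ap3 between 0.12 and 0.52.

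Genes of mature pollen and of the tapetum, outside the member rule, were also read in the mutants. Of 5 measured genes of mature pollen (VGD1, VGDH1, ACT12, ANX1 and TUA1), 4 were called lower in nzz and 4 in ms1, and 1, VGD1, in ap3. VGD1 encodes a pectin methylesterase of pollen tubes and lies outside the member rule; it had a log2 ratio of -4.02 ± 0.35 in nzz, -3.43 ± 0.35 in ms1 and -2.36 ± 0.35 in ap3. Of 4 measured genes of the tapetum and pollen wall (AMS, SHT, ATA20 and UND), 3 were called lower in nzz and 0 in ms1 or ap3 (limma). The pollen genes also served to choose the direction of the ratios, so their fall is no separate result. The part of lost pollen or tapetum in the members' ratios was not tested.

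Lists of other wall genes were covered thinly. Of 22 listed pectin enzymes and inhibitors outside the families, 3 had a probe: VGD1 and VGDH1, both called lower in nzz and in ms1, and ADPG1, a polygalacturonase of organ shedding and anther opening (-2.48 ± 1.15 in nzz, adjusted p = 0.180, limma, n = 4). COB and GH9A3, the 2 of 19 listed partners of cellulose synthesis with a probe, had log2 ratios between -0.18 and 0.24 in the 3 mutants, and none was called. GUT2 and IRX15, 2 of 26 listed genes of hemicellulose and the secondary wall, were not called either in any mutant. The lists of extensins, of callose enzymes and of arabinogalactan proteins with other symbols had no named probe.

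The mutants were also set against each other. In ap3 minus nzz, 5 of 79 tested members were called, all 5 higher, against 2.90% of 25974 gene probes (2.20% higher). BGLU15 had a log2 ratio of 0.32 ± 0.10 in ap3 and -1.48 ± 0.10 in nzz, a difference of 1.80 ± 0.14 (adjusted p = 0.000774, limma). XTH19 had 0.26 ± 0.13 in ap3 and -0.99 ± 0.13 in nzz, a difference of 1.25 ± 0.18 (adjusted p = 0.0105, limma). For neither gene did the ap3 and nzz arrays overlap. The other differences were 2.36 ± 0.44 for BGLU41, 0.69 ± 0.12 for EXPA8 and 0.53 ± 0.10 for TBL38. BGLU15 and XTH19 kept their calls without any single array. The other 3 differences were lost in most of these fits, which left 2 to 4 calls, among them 2 without ap3 replicates 2, 3 or 4 and without nzz replicates 1 or 3. The ap3 tissue ended at early stage 10 and the nzz tissue at stage 13, so mutant and stage cannot be told apart here.

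In ms1 minus nzz no member was called (0 of 80, with 13 at an unadjusted p under 0.05), against 178 of 26004 gene probes (0.685%, limma). For EXPA8 the difference was 0.01 (95% interval -0.27 to 0.29), with -0.75 in ms1 and -0.76 in nzz. For BGLU15 it was 0.27 (-0.04 to 0.58). Of the 13 members with an interval to one side of 0, 5 had lower and 8 higher ratios in ms1 than in nzz. Over all gene probes 3697 of 26004 had an unadjusted p under 0.05, 2131 lower and 1566 higher (limma). Among the lower were EXPB5 (-0.88, from -1.61 to -0.15), EXPA20 (-0.75, from -1.34 to -0.16) and EXPA4 (-0.57, from -0.97 to -0.18). Those with the lowest p were all on the higher side: XTH19 (0.75, from 0.35 to 1.16), BGLU41 (1.90, from 0.91 to 2.88) and EXPA24 (2.77, from 1.22 to 4.31). None passed the adjusted threshold; these last 3 had an adjusted p of 0.120, 0.108 and 0.132 (limma, n = 4 each).

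The ms1 series asked when during flower development the ratios differ. Per the labels, sample 1 held mature flowers and samples 2 to 7 ever earlier buds, with the meristem in sample 7. The pollen genes ran against this order. VGD1 had a log2 ratio of -0.60 ± 0.32 in sample 1, 0.26 in sample 2, -0.64 in sample 3, -3.65 in sample 4, -4.20 in sample 5, -4.20 in sample 6 and -3.73 ± 0.32 in sample 7. A gene of mature pollen was thus lowest in the samples labelled as earlier buds and near 0 in those labelled as mature. The samples are therefore called by number below, with no statement on which are older.

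Calls in the series were few. No member was called in sample 1 (0 of 81, against 2 of 26085 probes, 0.00767%, limma). An unadjusted p under 0.05 was found there for 2 members and 915 of all probes. There was 1 call in sample 2 (0.530% of all probes), and there were 2 in sample 3 (1.53%), 2 in sample 4 (1.27%), 2 in sample 5 (1.34%), 2 in sample 6 (0.882%) and 2 in sample 7 (0.568%). These 11 calls fell on 6 members. Values of the series are given set by set, from 1 to 3, and the fitted ratio is not their plain mean, since 1 of the 3 arrays had the dyes the other way.

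BGLU15 was called lower in 3 neighbouring samples. It had 0.31, -0.24 and 0.20 in sample 1, then -1.43, -0.83 and -1.36 in sample 2. In sample 3 it had -2.24, -2.30 and -2.02, in sample 4 -2.64, -2.01 and -2.38, and in sample 5 -2.37, -2.26 and -1.35. It was near 0 or mixed again in sample 6 (0.70, -1.35 and 0.11) and sample 7 (-0.26, -1.03 and 0.28). All 9 arrays of samples 3 to 5 were thus more than 2-fold lower in ms1, while samples 1, 6 and 7 had arrays on both sides of 0. The fitted log2 ratios were -2.25, -2.41 and -2.06, each ± 0.30 (SE, n = 3 each, adjusted p = 0.000523, 0.000306 and 0.00184, limma).

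BGLU41 was low in fewer samples. It had -1.69, -1.13 and -1.58 in sample 4 and -2.21, -2.0 and -3.12 in sample 5, with fitted ratios of -1.43 ± 0.23 and -2.40 ± 0.23 (adjusted p = 0.00393 and 5.57e-05, limma, n = 3 each). In samples 1 to 3 its arrays lay between -0.60 and 0.32, and in samples 6 and 7 between -1.17 and -0.07. Its call in sample 5 was the one series call that held without any single array and without any 1 of the 3 sets.

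EXPA24 changed sign along the series. It had 0.46, -0.34 and 0.16 in sample 1 and 1.13, 0.59 and 1.37 in sample 2. In sample 3 it had 2.60, 3.14 and 2.24, in sample 4 2.59, 1.79 and 1.26, and in sample 5 0.37, 0.45 and 2.49. In sample 6 it had -2.10, -3.58 and -0.62 and in sample 7 -1.13, -0.20 and 0.01. Every array of samples 2 to 5 was higher in ms1 and every array of sample 6 lower. The calls were sample 3 (2.57 ± 0.46, 5.95-fold higher, adjusted p = 0.00646) and sample 6 (-2.18 ± 0.46, 4.54-fold lower, adjusted p = 0.0381, limma, n = 3 each). In the pooled ms1 buds its ratios were -0.09, -0.51, 0.93 and 0.11, with no call. The probes of EXPA21, EXPA22, EXPA24 and EXPA25 are for loci next to each other (AT5G39260, AT5G39270, AT5G39310 and AT5G39300), and whether RNA of one hybridised to the probe of another was not tested.

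CSLC12, the xyloglucan synthase gene, was low at the end of the series. It had -1.77, -0.59 and -0.91 in sample 5, -4.50, -2.96 and -1.43 in sample 6, and -3.29, -2.54 and -2.31 in sample 7. In samples 2 to 4 all its arrays lay between -0.28 and 0.58, and in sample 1 its set 1 array was at 1.85. The fitted ratios in samples 6 and 7 were -2.94 ± 0.48 and -2.70 ± 0.48, or 7.68-fold and 6.48-fold lower in ms1 (adjusted p = 0.00719 and 0.0158, limma, n = 3 each). CSLB03, of a group whose product is not established, went the other way, with 0.46, 1.37 and 0.26 in sample 6 and 0.51, 2.38 and 0.77 in sample 7. All 6 of these arrays were higher in ms1, and the call in sample 7 was 1.30 ± 0.23 (adjusted p = 0.0164, limma, n = 3). Its value rested on set 2: the fitted ratio was 0.78 without the set 2 array of sample 7, and 0.64 without the whole of set 2. TBL39, a family member with no role given here, was called in sample 2 alone, with -1.02, -1.66 and -1.07 (fitted -1.35 ± 0.19, adjusted p = 0.00344, limma, n = 3).

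**Figure D3:**
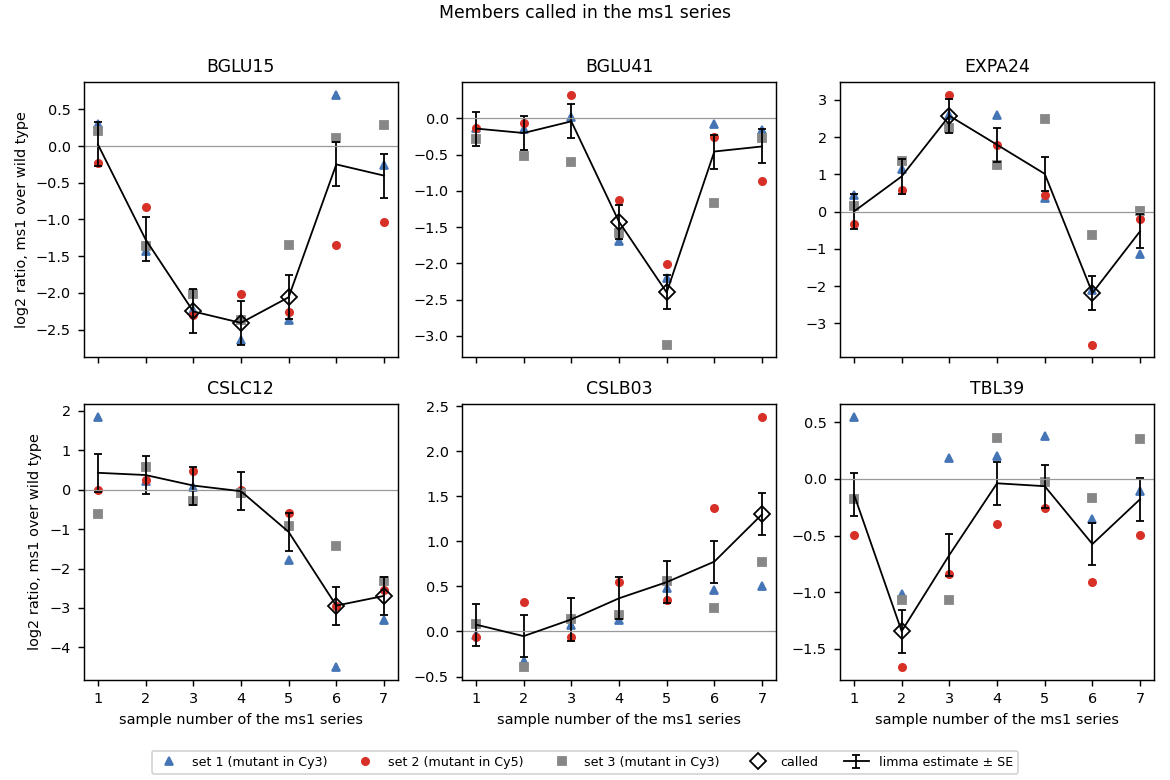
Log2 ratio of ms1 over wild type in samples 1 to 7 of the ms1 series for the 6 members called there, by set (coloured symbols), with the fitted value ± SE (black line) and calls (open diamonds). Each panel has its own scale. BGLU15 was lowest in samples 3 to 5, BGLU41 in samples 4 and 5, CSLC12 in samples 6 and 7, and EXPA24 crossed 0 between samples 5 and 6.

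The mean ratio of samples 1 to 3 was set against that of samples 5 to 7. Here 4 of 79 tested members were called, 3 higher and 1 lower in samples 1 to 3, against 1.64% of 25994 gene probes (1.13% higher and 0.516% lower). The differences were 2.54 ± 0.39 for CSLC12 (adjusted p = 0.00348), 1.74 ± 0.37 for EXPA24 (adjusted p = 0.0278), 0.95 ± 0.19 for BGLU41 (adjusted p = 0.0178) and -0.82 ± 0.19 for CSLB03 (adjusted p = 0.0425, all limma, 18 arrays). CSLC12 and BGLU41 kept the call in all 18 fits that left out 1 array and EXPA24 in 7 of them. CSLB03 kept it in 5 of 21 fits that left out an array or a set. Without a whole set the contrast gave 0 calls (set 1), 1 call (set 2) or 0 calls (set 3). The difference of the 3 pollen genes VGD1, VGDH1 and ACT12 in the same contrast was 2.20 to 4.62, and their part in the members' differences was not tested.

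Arrays of one set moved together, and with the set as a block more members, and more of all probes, were called. The share of all probes under the block was 1.76% in sample 4, 2.90% in sample 6, 1.25% in sample 7 and 3.42% in the contrast of samples 1 to 3 minus 5 to 7. In sample 4 there were 3 calls with the block against 2 without, adding EXPA9. In sample 6 there were 5 against 2, adding BGLU45 and, at low ratios, CSLC04 and EXPB5. In sample 7 there were 4 against 2, adding BGLU45 and EXPA15, and in the contrast of samples 1 to 3 minus 5 to 7 there were 6 against 4, adding BGLU45 and CSLC04. EXPB5, which was called in the pooled ms1 buds, had -2.24, -2.73 and -0.68 in sample 6 and -3.73, -0.55 and -1.44 in sample 7. All 6 arrays were lower in ms1, while in samples 1 to 5 its arrays lay between -0.45 and 0.63.

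A few further members held one sign over neighbouring samples without a call. TBL41 had -2.99, -2.93 and -3.07 in sample 2 and -2.08, -3.19 and -2.27 in sample 3. These 6 arrays agreed closely, but the spread elsewhere in the series was wide, from -4.70 to 1.5, and the adjusted p was 0.119 and 0.159 (limma, n = 3 each). EXLA1, lower in nzz, was higher in ms1 on every array of series samples 1 to 5, from 0.29 to 2.05, with its lowest adjusted p, 0.0630, in sample 4 (limma, n = 3).

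For several members the sign followed the set rather than the sample. Between sets 1 and 3, which had the same dye orientation, 7 members had opposite signs on all 7 samples of each set: BGLU44, CSLA01, EXPA7, EXPA15, EXPB3, TBL24 and TBL26. How many of all gene probes did so was not counted, so this split is not shown to be particular to the members. CSLA01 ranged from 1.06 to 2.26 over the 7 samples of set 1 and from -1.22 to -0.39 over those of set 3, and in set 2 from -3.25 to 0.43. BGLU44 ranged from 0.41 to 1.47 in set 1, from -1.13 to -0.39 in set 2 and from -0.88 to -0.29 in set 3. For both genes the range of set 1 overlapped neither of the others. BGLU45 ran the other way, from -1.60 to -0.03 in set 1, from 0.90 to 1.65 in set 2 and from -0.11 to 0.76 in set 3. Its values in set 1 thus overlapped those of set 3 at the edge, and those of set 2 lay above both. No member had 1 sign on all 21 series arrays. EXPA7, EXPA15 and TBL26, called higher in nzz, are among the members that split by set in the series. TBL26 was also called higher in the pooled ms1 buds. In the ms1 series it ranged from 0.65 to 2.14 in set 1 and from -1.42 to -0.48 in set 3.

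**Figure D4:**
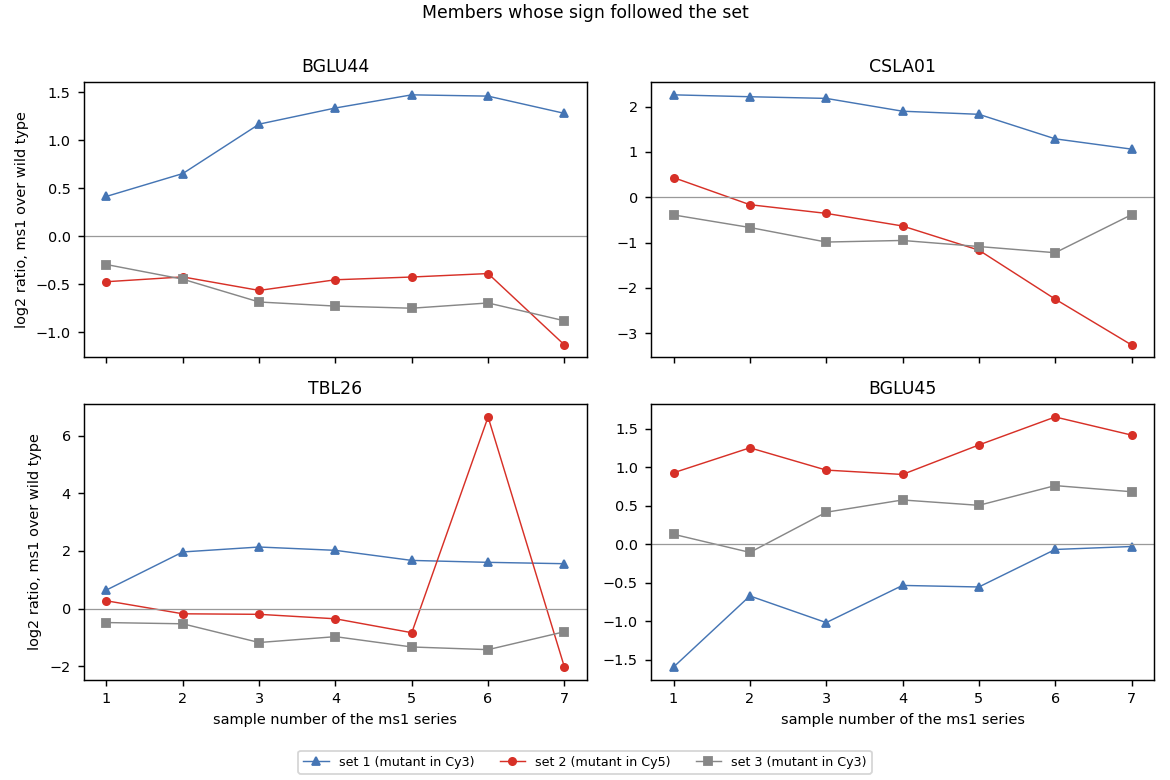
Log2 ratio of ms1 over wild type in samples 1 to 7 of the ms1 series for BGLU44, CSLA01, TBL26 and BGLU45, with 1 line per set of 7 arrays. Sets 1 and 3 had the mutant in Cy3 and set 2 in Cy5. In BGLU44, CSLA01 and TBL26 all 7 samples of set 1 lie above 0 and all 7 of set 3 below, and the single high TBL26 point of set 2 is at the limit of 6.64.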

How the data were processed

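The authors deposited 1 normalized table of 33 two-colour arrays, taken here to be log10 ratios; the base is inferred from a limit at 2 and -2 in the deposited unit, and how the authors scanned and normalized is not stated in the sources used here. Per the labels' protocols, RNA was amplified with T7 polymerase and the dyes were switched between replicates; that 4 arrays of a mutant were 4 separate samples is not stated, and p-values measure only the spread between arrays. They were brought to the log2 scale (times 3.32), as mutant over wild type. They were read as already turned to 1 direction because genes of mature pollen had the same sign in both dye orientations. Over 16600 probes without missing or limited values, replicates of opposite dyes correlated best in nzz (r from 0.50 to 0.57), less in ms1 (0.10 to 0.27), around 0 in ap3 (-0.11 to 0.06) and negatively in series sample 1 (-0.61 to -0.04). Over all probes r was negative in each of these: series sample 1 had -0.53 to -0.52, the ap3 arrays -0.50 to -0.44, the ms1 arrays -0.40 to -0.20 and the nzz arrays -0.32 to -0.06. Array medians lay between -0.08 and 0.14.

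Symbols came from the platform annotation, updated through the RefSeq gene table: 13912 of 13960 named probes matched a locus. The 450 control lines were left out. limma 3.58.1 (R 4.3.3, statmod 1.5.0; lmFit, eBayes) fitted the 12 mutant arrays and the 21 series arrays separately, with 1 coefficient per group and a dye term. In the series the dye term also takes up what is particular to set 2. A probe needed 3 values in a mutant or 2 in a series sample, and p-values were adjusted over all probes tested. The fit was tested on simulated data with independent noise on each array. Set effects and the limit were not part of that simulation, so it cannot speak for them. The number of arrays limits the precision.

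The sets pair the series samples: they were collected on different days per the labels, and deviations of samples of the same set had a median r of 0.45 (43 of 63 pairs over 0.1), against -0.02 between sets. Replicate numbers of the mutants did not pair them.

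The members and gene lists were chosen with earlier results of these data known. Named in the text are called members with 1 sign on every array, the member of each family with the lowest p in nzz and in ms1, and members with a known role in pollen; other members named, such as those that follow the sets, were chosen after their values were seen. Alternatives covered the dye term, centring, scaling, limited values, the block, separate fits, the reading as dye ratios, the symbol source, robust eBayes and arrays left out; leaving out whole sets was chosen after seeing the data.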

Additional observations from a re-analysis of the deposited data

Results flagged for a closer look

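Of 44 groups of 4 mutant arrays checked for a single distant array, 2 had one; chance marks about 1 in 20 such groups. PME61, a pectin methylesterase gene, had 6.64, the limit, on nzz replicate 1, with the other 3 arrays between -0.84 and -0.14. XTH33, a xyloglucan-modifying gene, had -2.05 on ms1 replicate 1, with the others between -0.36 and -0.09. Neither gene was called in that mutant.

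The following log2 ratios differed between 2 groups by limma's test of the difference. In ap3 minus nzz these were BGLU15 (1.80), BGLU41 (2.36), EXPA8 (0.69), TBL38 (0.53) and XTH19 (1.25), where mutant and stage cannot be told apart. In the ms1 series, the mean of samples 1 to 3 minus that of samples 5 to 7 was 0.95 for BGLU41, -0.82 for CSLB03, 2.54 for CSLC12 and 1.74 for EXPA24.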

How the results depend on the processing

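The reading of the values decides most of what is reported. Counts of called members in this section mostly stand without the share called over all gene probes. They compare settings and do not set the members against all probes. When they were read as dye ratios, so that arrays with the mutant in the other dye were turned, members called numbered 1 in ap3, 2 in nzz, 0 in ms1, 1 in ap3 minus nzz and 1 in ms1 minus nzz. In series samples 1 to 7 they numbered 2, 0, 0, 0, 0, 0 and 0, and in samples 1 to 3 minus 5 to 7 there were 0. Where this reading or a separate fit took a count of calls to 0, 4 to 18 members had an unadjusted p under 0.05 (limma). Under it these log2 ratios changed sign. In nzz they were 2.27 for BGLU36, -0.10 for BGLU40, 1.15 for BGLU41, 0.086 for CSLC12, 0.0028 for EXLA1, 0.28 for EXPA24, 0.022 for EXPA8, -0.016 for TBL35, 0.12 for TBL38 and 0.089 for XTH19, and in ms1 0.16 for EXPB5. In ap3 minus nzz they were -0.038 for BGLU15, -0.75 for BGLU41, -0.10 for EXPA8, -0.047 for TBL38 and -0.21 for XTH19. In the series they were 0.24, 0.59 and 0.077 for BGLU15 in samples 3, 4 and 5, 0.47 and 0.87 for BGLU41 in samples 4 and 5, 0.72 and 0.74 for CSLC12 in samples 6 and 7, and -0.39 for EXPA24 in sample 3. In samples 1 to 3 minus 5 to 7 they were -0.23 for BGLU41, -1.02 for CSLC12 and -0.25 for EXPA24. No other alternative turned the sign of a called member ratio.

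With each group fitted alone, 14 members were called in nzz (7 of the 16 among them), 0 in ms1 and 8 in ap3 minus nzz. In series samples 2, 4, 5, 6 and 7 the separate fits gave 8, 0, 0, 0 and 0 calls, with 3292 of all probes called in sample 2 against 138 in the joint fit; each left 1 degree of freedom to a series sample. Without the dye term, 3 were called in ap3 minus nzz, 0 in series sample 2, 1 in sample 6 and 1 in sample 7. Scaling the arrays to 1 spread gave 5 calls in sample 4 and 1 in sample 6, and 272 probes in ap3 against 46. Leaving out probes with a limited value gave 5 in sample 4. The replicate block gave 5 in sample 6, 4 in sample 7 and 6 in samples 1 to 3 minus 5 to 7. The numbers of the mutants did not pair the arrays (median r of 0.06 for the same number, 6 of 12 pairs over 0.1); as a block they gave 17 calls in nzz, 4 in ms1, 0 in ap3, 0 in ms1 minus nzz and 2 in ap3 minus nzz. The blocks added or removed no other calls than EXPA9 in sample 4 and those within these counts.

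Without 1 array there were 0 to 0 calls in ap3, 2 to 4 in ms1, 8 to 13 in nzz, 2 to 4 in ap3 minus nzz and 0 to 1 in ms1 minus nzz. In series samples 1 to 7, without an array or a set, they ranged from 0 to 1, 0 to 1, 0 to 3, 0 to 2, 1 to 2, 0 to 3 and 0 to 2, and in samples 1 to 3 minus 5 to 7 from 0 to 5. Without set 1 there were 0 calls in samples 2, 3 and 4 and in that contrast, without set 2 there were 0 in samples 2, 6 and 7 and 1 in samples 3 and 4 and in the contrast, and without set 3 there were 1 in samples 3, 4 and 5 and 0 in samples 6 and 7 and in the contrast. The causes of these changes were not tested. The number of arrays and the limit at 100-fold, where the sign mostly followed the dyes, restrict what the members' values can show.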

Other observations

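Some members had 1 sign on all 4 arrays of a mutant and were not called in any comparison. TBL34, of the group that acetylates xylan, had a log2 ratio of -0.55 ± 0.19 in nzz (adjusted p = 0.0920, limma, n = 4), and BGLU44 had 0.66, 0.75, 0.37 and 0.23, though its sign differed between sets of the ms1 series (adjusted p = 0.0652, limma, n = 4). EXPA18, an expansin of root hairs, had 1.31 ± 0.39 in ms1, with a wide spread between arrays (SD 0.87; adjusted p = 0.162, limma, n = 4). These 3 were chosen after their values were seen.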
